A study of Homo sapiens with 12 samples.

Results

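Neurotrophin 3 (NTF3) and its receptors NTRK3 and NGFR were followed across the cultures of an Rh30 microarray experiment. They are 3 of the 23870 gene names on the array and are read by 6 of its 41000 probes, 1 for NTF3, 1 for NGFR and 4 for NTRK3. Probes were taken by gene symbol, control spots aside. The genes themselves were selected on the array ratios of the 3 comparisons, so those ratios are given below as a description, with no test. Detection of a receptor was not itself a criterion of that choice, but a usable ratio needs signal, so detection is not fully separate from it.

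Rh30 is a human alveolar rhabdomyosarcoma line that carries the PAX3-FKHR (PAX3-FOXO1) fusion. WT was the untransfected parental line, CON was 1 clone stably carrying a control non-targeting shRNA, and KD1 was 1 clone stably carrying an shRNA against PAX3-FKHR. Both clones were held in 1 μg/mL puromycin, which WT did not receive, and all cells were grown for 24 h after plating. Each culture gave 2 biological replicates, and each pair of cultures was compared on 4 arrays, 2 per replicate with the dyes exchanged, 12 arrays in all. Every one of the 6 RNA extracts was therefore read on 4 arrays, and every culture in 8 channels. With 1 clone on each side, the knockdown cannot be told apart from other differences between the CON and KD1 clones, and the vector, puromycin and cloning cannot be told apart in any comparison with WT.

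Neurotrophins are secreted growth factors that are made as proproteins, cleaved by proprotein convertases and bound by Trk receptor tyrosine kinases and by the p75 receptor. NTF3 binds TrkC, the product of NTRK3, most strongly, whereas BDNF and neurotrophin 4 (NTF4) bind TrkB (NTRK2). Each of them also binds p75, the product of NGFR, which belongs to the tumour necrosis factor receptor family and works with sortilin and other partners. NTF3 is known for its role in the survival of proprioceptive neurons that serve skeletal muscle.

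The following 60-base probes show which parts of the transcripts the central measurements read. They are printed 5′ to 3′ from the array design, wholly in lower case because no stretch within them is singled out.
NTF3 A_23_P360797: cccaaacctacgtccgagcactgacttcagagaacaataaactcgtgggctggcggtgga
NTRK3 A_23_P88538: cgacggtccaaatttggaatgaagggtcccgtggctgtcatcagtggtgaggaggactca
NTRK3 A_23_P205900: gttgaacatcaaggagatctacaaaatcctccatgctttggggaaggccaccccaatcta

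The NTF3 probe lies at chr12:5474300-5474359 on the plus strand of hg18, and 1 of its 3 reading frames is free of stop codons. The NTRK3 probe A_23_P88538 is listed at chr15:86377246-86470530 on the minus strand, a span far longer than the probe itself, as a probe across an exon junction would have. The NTRK3 probe A_23_P205900 lies further 3′, at chr15:86221189-86221248. Both of these NTRK3 probes are annotated to the same pair of curated transcripts, which encode TrkC with its kinase domain. Whether transcripts without the kinase domain also match either probe was not examined. The remaining NTRK3 probes, A_24_P810476 and A_32_P141969, are annotated to a much longer transcript model, at bases 16086 and 19814 of it. The NGFR probe, A_23_P389897, lies at chr17:44946977-44947036 on the plus strand, at base 3015 of its transcript.

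The arrays had no saturated spots, and 64.4% to 73.6% of spots were well above background, the scanner software's test of a spot against its local background. The level of the negative controls differed more, with a 99th percentile between 1.81 and 40.65, the highest on an array of KD1 against CON in replicate 1. Muscle markers fitted the labelled line: all 4 (MYOD1, MYOG, DES and CHRNA1) were well above background in 24 of 24 channels, whereas TFAP2B, a marker of fusion-positive rhabdomyosarcoma, was so in 0 of 24 and CDH3 in 22. The leukocyte marker PTPRC was not well above background in any channel, and of 4 Schwann cell and neural crest markers the most often detected was SOX10, in 6 of 24. By its brightest probe, PAX3 was lower in KD1 by a log2 ratio of -0.42 ± 0.04 (SD, n = 2) against CON and -0.39 ± 0.08 against WT, with FOXO1 at -0.42 ± 0.23 and -0.60 ± 0.26. None of these passed the test (limma, adjusted p = 0.327 and 0.374 for PAX3 and 0.433 and 0.273 for FOXO1), and the probes were not assigned to the fused or the unfused transcripts. The other PAX3 probes varied. In the same comparisons A_24_P362595 was at -0.28 ± 0.05 and -0.25 ± 0.05, and A_23_P209499 at -0.09 ± 0.35 and 0.06 ± 0.28. By RT-PCR and Western blot, the study reports less PAX3-FKHR in KD1 than in CON.

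One extract stood apart. The second WT replicate held the epithelial markers EPCAM, at signals of 143 to 244 in its 4 channels against 2.22 to 6.59 in the other 20, and KRT19, at 373 to 561 against 20.0 to 63.1. Signals of MYOD1 in that extract, 17510 to 31132, overlapped those of the other extracts, 19401 to 29233. For NTF3, NTRK3, NGFR and BDNF the ratios that use WT are therefore given for each replicate, and replicate 1 is free of that extract.

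NTF3 differed most between the cultures and was lowest in KD1. In CON its processed signal, the background-corrected and dye-normalized intensity, which was not scaled between arrays, was 295.7, 312.9, 382.5 and 392.8 in replicate 1 and 279.0, 312.7, 362.2 and 366.3 in replicate 2. In WT it was 222.8, 244.3, 262.6 and 292.3 in replicate 1 and 119.8, 124.8, 134.1 and 146.1 in replicate 2. In KD1 it was 11.3, 13.0, 15.8 and 26.2 in replicate 1 and 14.1, 14.2, 18.0 and 22.9 in replicate 2. The KD1 signals lay below every WT signal, and WT replicate 2 lay below WT replicate 1 without overlap. NTF3 was well above background in 8 of 8 CON channels and 8 of 8 WT channels. In KD1 it was so in 4 of 8, which were the 4 Cy3 channels and 0 of the 4 Cy5 channels, so its level in KD1 was close to the limit of detection.

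**Figure D1:**
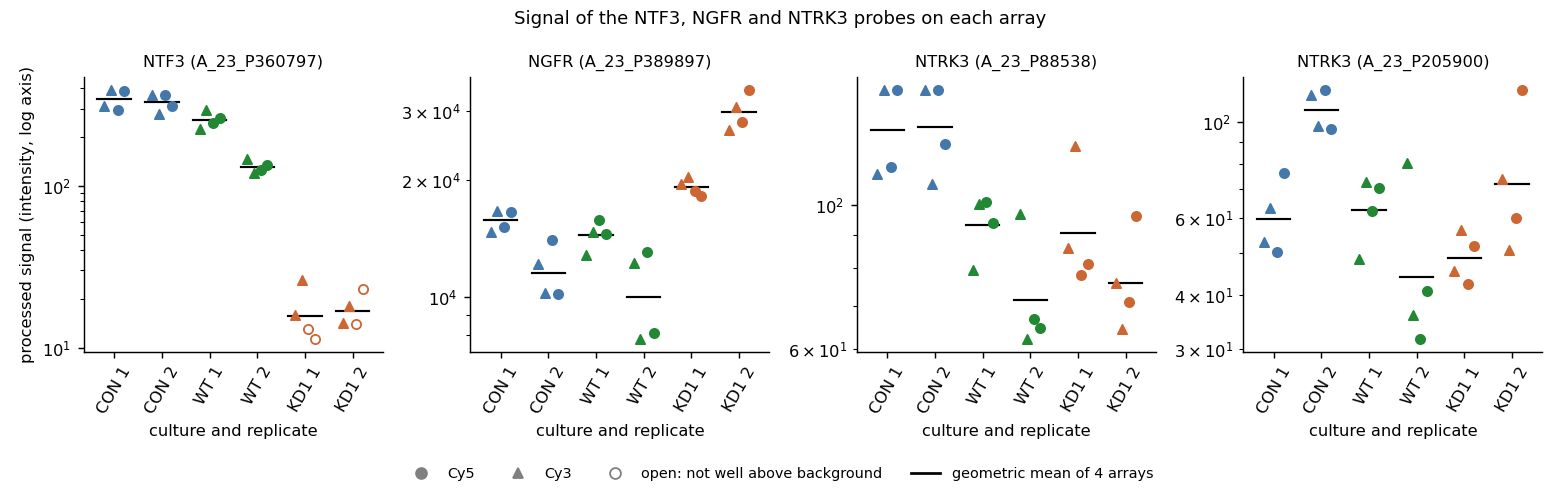
Processed signal (intensity, log axis, scaled separately in each panel) of the NTF3 probe, the NGFR probe and the NTRK3 probes A_23_P88538 and A_23_P205900 in the 6 extracts, with 4 arrays each, circles for Cy5, triangles for Cy3, open symbols where the spot was not well above background, and a line at the geometric mean of the 4 arrays. NTF3 in KD1 sits between 11.3 and 26.2, below all CON and WT points, NGFR in KD1 sits above all CON and WT points, and all points of both NTRK3 probes are filled.

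Within arrays, the log2 ratio of NTF3 in KD1 against CON was -4.59 and -4.22 in replicate 1 and -4.68 and -4.69 in replicate 2. The mean was -4.55 ± 0.20 (SD, n = 2). Against WT the ratios were -4.30 and -3.22 in replicate 1 and -2.67 and -2.79 in replicate 2. Their mean was -3.25 ± 0.73. Because the KD1 signal was near background, the size of these ratios rests on the background correction, and normexp correction with an offset of 50 gave -1.37 against CON and -0.96 against WT, in the same direction. WT was itself lower than CON on 4 of 4 arrays, by a log2 ratio of -0.48 in replicate 1 and -1.22 in replicate 2, with a mean of -0.85 ± 0.52. The order of the cultures was thus CON, WT and KD1 in each replicate. The step from CON to WT was larger in the replicate whose WT extract held the epithelial markers, and their part in it was not tested. The study also lists NTF3 among genes lower in KD1, a choice made on these same arrays, which is not independent evidence. Apart from its arrays, it cites earlier work in another alveolar line, Rh4, that named NTF3 a target of PAX3-FKHR. That work was not examined here.

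NTRK3, the gene of the main NTF3 receptor, was detected in all cultures. Its brightest probe, A_23_P88538, was well above background in 8 of 8 channels of CON, of WT and of KD1, and so was A_23_P205900. By the stricter measure of exceeding the 99th percentile of the negative controls of its own channel, A_23_P88538 passed in 23 of 24 channels and A_23_P205900 in 21 of 24. The probes of the long transcript model were dimmer. A_24_P810476 was well above background in 6 CON, 4 WT and 2 KD1 channels, and A_32_P141969 in 6, 3 and 2.

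The signal of A_23_P88538 was 111.7 to 151.0 in CON replicate 1 and 107.9 to 150.9 in CON replicate 2. It was 79.5 to 101.1 and 62.1 to 96.9 in the WT replicates, and 78.0 to 123.6 and 64.4 to 96.3 in the KD1 replicates. WT did not overlap CON, whereas KD1 overlapped both. The log2 ratio of KD1 against CON was -0.47 in replicate 1 and -1.04 in replicate 2, a mean of -0.75 ± 0.41 (SD, n = 2). WT against CON gave -0.64 and -0.87, a mean of -0.75 ± 0.17. KD1 against WT gave 0.16 and -0.03, a mean of 0.06 ± 0.14, which is within the spread of the replicates. With normexp correction the means against CON were closer to 0, at -0.24 in KD1 and -0.33 in WT.

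The 3′ probe A_23_P205900 was also lower in KD1 than in CON, with log2 ratios of -0.23 and -0.81 and a mean of -0.52 ± 0.41. It varied more where WT was used. Its ratio of WT against CON was 0.04 in replicate 1 and -1.35 in replicate 2, and that of KD1 against WT was -0.03 and 0.62. Signals of this probe were 50.1 to 76.4 and 96.5 to 118.3 in the CON replicates, 48.4 to 72.6 and 31.6 to 80.6 in the WT replicates, and 42.4 to 56.3 and 50.8 to 118.7 in the KD1 replicates, so that all cultures overlapped. The probes of NTRK3 thus disagreed on WT, and in replicate 1, without the extract that held EPCAM and KRT19, A_23_P88538 still read WT lower than CON while A_23_P205900 did not. MYOG, a factor of late muscle differentiation, had the same direction as A_23_P88538 in each comparison with CON, at -1.14 ± 0.30 in KD1 (limma, adjusted p = 0.0511) and -1.73 ± 0.33 in WT (adjusted p = 0.0187), whereas MYOD1, DES and CHRNA1 lay between -0.25 and 0.50 in these comparisons, and the part of the muscle state in NTRK3 was not tested.

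NGFR, the gene of p75, was well above background in 8 of 8 channels of each culture, and its background-subtracted signal was between 192 and 3699 times the 99th percentile of the negative controls. Its processed signal in KD1 was 18145 to 20299 in replicate 1 and 26723 to 33965 in replicate 2. In CON it was 14693 to 16643 and 10167 to 13994, and in WT 12810 to 15736 and 7814 to 13026. KD1 lay above CON and WT without overlap, and CON and WT overlapped. The log2 ratio of KD1 against CON was 0.35 and 0.37 on the arrays of replicate 1 and 1.21 and 0.93 on those of replicate 2, with a mean of 0.71 ± 0.51 (SD, n = 2). Against WT the mean was 0.89 ± 0.65, from 0.43 and 1.35. WT against CON gave -0.19 and -0.36, a mean of -0.27 ± 0.12. All 8 arrays with KD1 read NGFR higher in KD1, and replicate 2 differed from replicate 1 by more than the arrays within a replicate did, each KD1 replicate having been hybridized on a slide of its own.

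**Figure D2:**
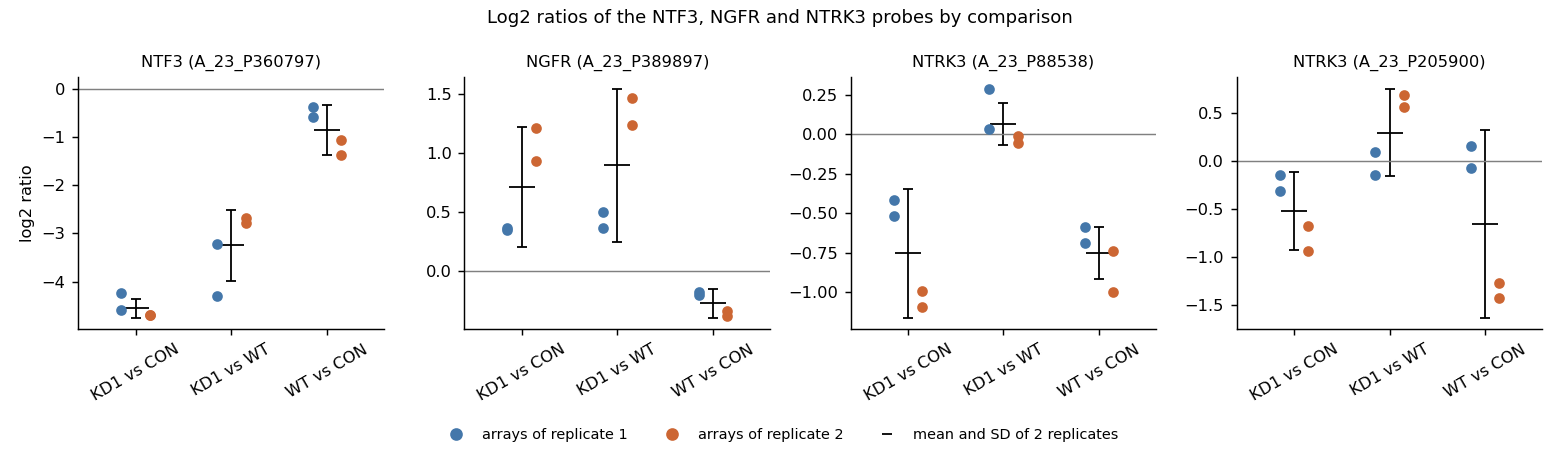
Log2 ratio of each array (points, coloured by replicate) with the mean and SD of the 2 replicates (black), for the NTF3 probe, the NGFR probe and the NTRK3 probes A_23_P88538 and A_23_P205900 in the 3 comparisons, each panel on its own scale. NTF3 is at -4.55 in KD1 against CON, NGFR is above 0 on all 8 arrays with KD1, and A_23_P88538 of NTRK3 is near 0 only in KD1 against WT.

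Of the rest of the family, BDNF was well above background in 24 of 24 channels by its brightest probe. NTF4 was so in 0 of 24 channels. The NTRK2 probe A_24_P343559 was well above background in 19 of 24 channels, at signals of 22.8 to 44.1. The other NTRK2 probes were so in 0 and 2 of 24 channels, and the 2 channels belong to 1 array. NTRK3, unlike NTRK2, was thus detected by more than 1 probe in every channel of each culture.

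**Figure D3:**
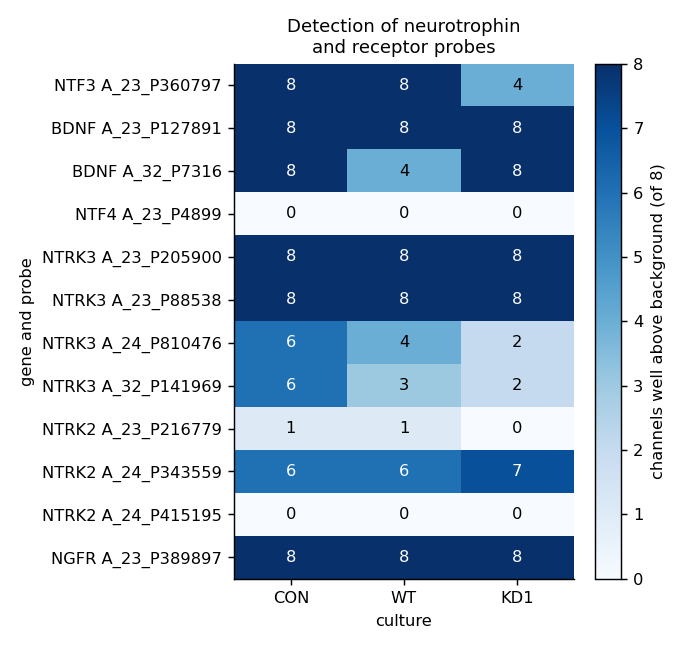
Number of channels, out of 8 per culture, in which each probe of NTF3, BDNF, NTF4, NTRK3, NTRK2 and NGFR was well above background. NTF3 goes from 8 of 8 in CON and WT to 4 of 8 in KD1, NGFR and the NTRK3 probes A_23_P205900 and A_23_P88538 are at 8 in each culture, and NTF4 is at 0.

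BDNF differed between WT and each of the clones. It was higher in KD1 than in WT, with log2 ratios of 1.34 and 1.85 and a mean of 1.60 ± 0.36 (limma, adjusted p = 0.0244), and lower in WT than in CON, at -1.52 and -1.62 with a mean of -1.57 ± 0.07 (adjusted p = 0.0225). Neither passed in the fit of separate channels with the replicate as a block (adjusted p = 0.0553 and 0.0541), under median centring (0.0619 and 0.0632) or under normexp (0.129 and 0.125). In KD1 against CON the mean log2 ratio of BDNF was -0.09 ± 0.26 (adjusted p = 0.893). These values are of its brightest probe. The dimmer BDNF probe A_32_P7316 gave -1.59 ± 0.30 in WT against CON (limma, adjusted p = 0.0191). It was too dim for the test in the comparisons with KD1, at 1.48 ± 0.04 against WT and -0.41 ± 0.13 against CON. With the second WT extract left out, BDNF did not pass the test in either comparison with WT (adjusted p = 0.118 and 0.125), at log2 ratios of 1.34 and -1.52.

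The other genes of the system were described by lists of ligands, TrkB, p75 co-receptors, proprotein convertases, p75 partners, Trk adaptors, other neurotrophic factors and neurotrophin-responsive genes, 62 genes without NTF3, NTRK3 and NGFR. In KD1 against CON, 41 of them were tested by their brightest probe and 4 fell, 9.76% beside 1.01% of all 21949 probes. None rose, beside 0.765% of all probes, and 5 were higher at an unadjusted p under 0.05 by limma. Over both directions, 11 of the 41 genes and 3775 of the 21949 probes had such a p. Of the 4, MAGEH1, MDK and ARC are on the list of the study, which was drawn from these arrays. Without the listed genes, 1 of 38 fell, or 2.63%. The median log2 ratio was 0.03 over the 41 genes and -0.01 over all probes. With normexp correction no list gene passed in any of the 3 comparisons.

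In KD1 against WT, 47 of the 62 genes were tested, of which 3 fell, 6.38% beside 0.759% of all 24893 probes, and 1 rose, beside 0.281%. Without the listed genes 0 of 43 fell, and 1 rose, namely BDNF. At an unadjusted p under 0.05 by limma, 3 of these 43 were lower and 4 higher. In either direction, 4282 of all 24893 probes had such a p. In WT against CON, 51 were tested, of which 2 were lower in WT, beside 0.594% of all 26616 probes, and 1 was higher, beside 0.781%. These were BDNF and GFRA1 in the first direction and PTN in the second. The median log2 ratio over the tested genes was -0.02 in KD1 against WT and -0.01 in WT against CON, beside 0.01 and -0.03 over all probes.

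Among the p75 partners, MAGEH1, a member of the MAGE family that binds p75, fell in KD1, with a log2 ratio of -5.50 ± 0.09 against CON (limma, adjusted p = 0.000836) and -3.82 ± 1.06 against WT (adjusted p = 0.00668), where the replicates gave -4.57 and -3.06. It was the only one of 9 tested partners that passed in either comparison. BEX3, also known as NGFRAP1, was at -0.02 ± 0.01 against CON and MAGED1 at 0.06 ± 0.02, with adjusted p = 0.984 and 0.938. No tested co-receptor, convertase or Trk adaptor passed in any comparison (limma, 16, 19 and 20 genes tested in KD1 against CON, KD1 against WT and WT against CON, of which 2, 2 and 1 had an unadjusted p under 0.05). Over all probes, 390 of 21949, 259 of 24893 and 366 of 26616 passed in these comparisons. At an unadjusted p under 0.05 by limma they numbered 3775, 4282 and 4406. Of the co-receptors, sortilin (SORT1) was at -0.23 ± 0.19 in KD1 against CON (adjusted p = 0.786). The co-receptor RTN4R was left out of the test in both KD1 comparisons by the filter on dim probes. Its replicates differed widely, at -0.05 and 2.20 against CON and 0.71 and 3.09 against WT. Among the convertases, PCSK5 was at -0.83 ± 0.38 against CON and -1.38 ± 0.25 against WT (adjusted p = 0.169 and 0.0673), and FURIN at -0.46 ± 0.03 and -0.53 ± 0.33 (adjusted p = 0.355 and 0.300).

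Of the other neurotrophic factors, pleiotrophin (PTN) fell in KD1 against WT, to a log2 ratio of -4.60 ± 0.30 (limma, adjusted p = 0.000178) and was higher in WT than in CON, at 4.16 ± 0.16 (adjusted p = 0.000639). It was too dim for the test in KD1 against CON, where its brightest probe gave -1.28 ± 0.02 and was well above background in 1 KD1 and 2 CON channels. Since PTN was near background in both clones, the sizes of its ratios rest on the background correction, and normexp correction gave -1.67 in KD1 against WT and 1.72 in WT against CON (adjusted p = 0.143 and 0.133). A further PTN probe, A_23_P303087, was well above background in 8 of 8 WT channels and 0 of 8 KD1 channels. Midkine (MDK), the relative of pleiotrophin, fell in KD1 against CON, to -2.96 and -1.40 in the replicates and a mean of -2.18 (adjusted p = 0.0331, and 0.0599 with the replicate block) and was at -1.90 ± 0.31 against WT (adjusted p = 0.0664). GFRA1, a co-receptor of the GDNF family, was lower than in CON in both other cultures, at -3.27 ± 0.21 in KD1 (adjusted p = 0.00151) and -3.24 ± 0.55 in WT (adjusted p = 0.00313). Its probe was well above background in 4 of 8 KD1 and 4 of 8 WT channels, so these sizes also rest on the background correction. With normexp GFRA1 was at -0.70 in KD1 and -0.89 in WT (limma, adjusted p = 0.122 and 0.125). The probes of GDNF itself disagreed in KD1 against CON. Its brightest probe, by which it was counted, gave 0.03 ± 0.07 (limma, adjusted p = 0.973). A_32_P377880 gave -1.15 ± 0.08 and passed (adjusted p = 0.0344). A_23_P167683 and A_24_P25544, at -1.11 ± 0.09 and -1.08 ± 0.28, were too dim for the test.

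Of the neurotrophin-responsive genes, 6 were tested in KD1 against CON and 7 in KD1 against WT. ARC, a cytoskeletal protein of early response, fell in KD1 to -2.53 ± 0.56 against CON (limma, adjusted p = 0.00312) and to -1.83 ± 0.28 against WT (adjusted p = 0.0202, and 0.0531 with the replicate block). With normexp it was at -0.80 against CON and -0.46 against WT (limma, adjusted p = 0.127 and 0.244). The other responsive genes did not pass in the main fit. DUSP6, a phosphatase of ERK that is induced by ERK signalling, was at 0.96 ± 0.64 against CON (adjusted p = 0.134), SPRY2 at 0.73 ± 0.06 (adjusted p = 0.186) and EGR1 at 0.10 ± 0.23 (adjusted p = 0.954). Against WT EGR1 was at 1.67, from 0.79 and 2.54 in the replicates (adjusted p = 0.142). Without the second WT extract, which leaves fewer samples in the fit, 4 further calls did not pass. MDK in KD1 against CON uses no WT sample and stayed at -2.18 (adjusted p = 0.0763). ARC in KD1 against WT was at -2.03 (adjusted p = 0.118). In WT against CON, GFRA1 was at -2.85 (adjusted p = 0.102) and PTN at 4.28 (adjusted p = 0.0693).

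**Figure D4:**
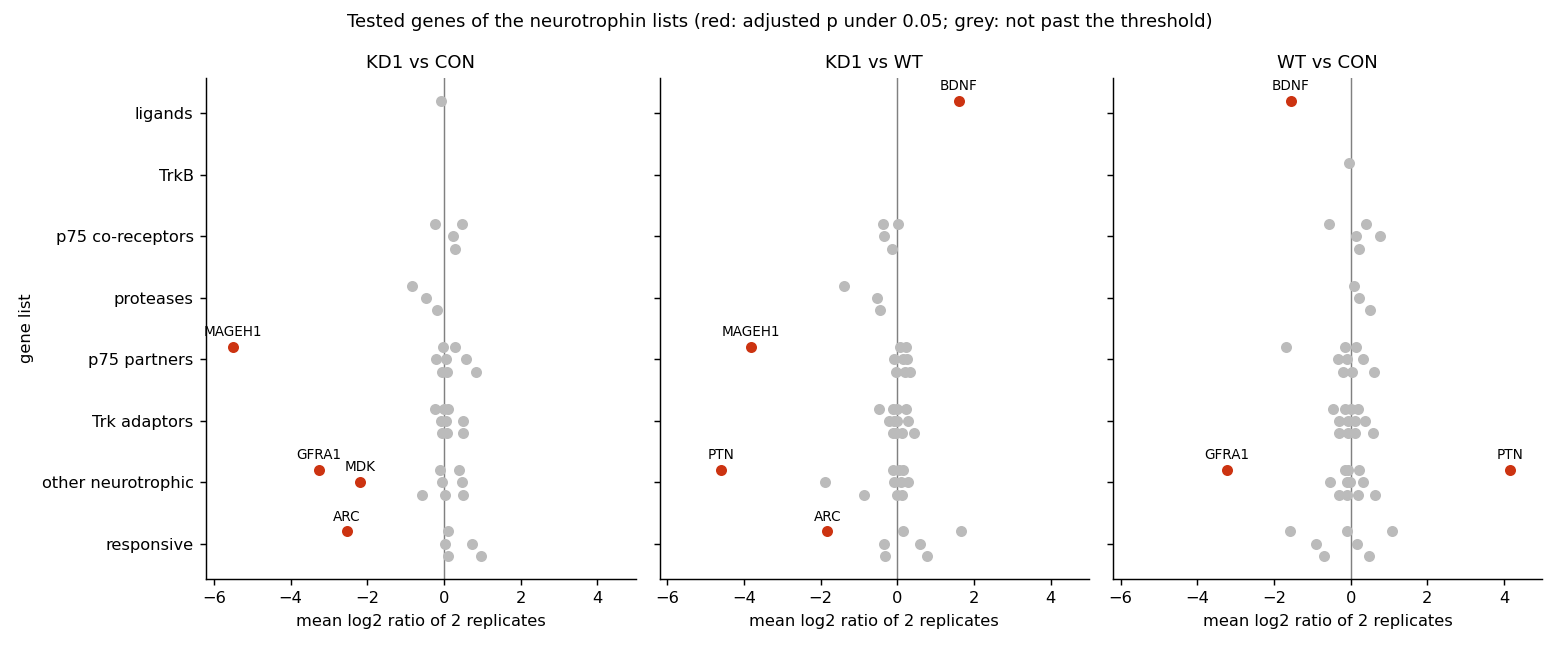
Mean log2 ratio over 2 replicates of each tested gene of the neurotrophin lists, without NTF3, NTRK3 and NGFR, in the 3 comparisons, by list, with genes of adjusted p under 0.05 in red and named. In KD1 against CON MAGEH1 lies at -5.50, while all Trk adaptors, co-receptors and convertases are grey.

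The genes most like NTF3 over the 12 arrays were sought by the mean absolute difference between log2 ratios, among 13738 other genes tested in all comparisons. The nearest was FBXO4, an F-box protein, at a difference of 0.53, followed by C7orf46 at 0.66, LGI2 at 0.67, ITPRIPL2 at 0.69 and DLL3, a Notch ligand, at 0.72. FBXO4 had log2 ratios of -4.90 ± 0.25 in KD1 against CON, -4.05 ± 0.76 against WT and -0.71 ± 0.24 in WT against CON. DLL3 had -3.65 ± 0.49, -3.03 ± 0.42 and -0.26 ± 0.43. These genes lie on chromosomes 5, 7, 4, 16 and 19, away from NTF3 on chromosome 12. Each of them is, like NTF3, on the study's list of genes lower in KD1, which was drawn from these same arrays.

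The genes around each member were described to see whether it moved with its surroundings. A gene here is a named gene or an unnamed transcript of the array, read by its brightest probe. Around NTRK3, the 69 other tested genes within 5 Mb had a median log2 ratio of -0.31 in KD1 against CON, at -0.32 in replicate 1 and -0.31 in replicate 2, and 81.2% of them were below 0. Over all 523 other tested genes of chromosome 15 the median was -0.14 and the share below 0 was 68.8%, and over all 15766 tested genes they were -0.02 and 52.1%. The 10 nearest tested genes, 5 on each side, were all below 0, between -0.87 for PDE8A and -0.29 for ZNF592. NTRK3 itself, at -0.75, lay below the lower quartile of its neighbours, -0.49. In WT against CON, where NTRK3 was again at -0.75, the 82 genes within 5 Mb had a median of -0.09 and 57.3% were below 0, while the 10 nearest had a median of -0.26 and 8 of them were below 0. In KD1 against WT, with NTRK3 at 0.06, the 80 genes within 5 Mb were at -0.20 and the 10 nearest at -0.27, with 7 below 0. The part of the region in the NTRK3 ratio was not tested.

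NTF3 and NGFR lay apart from the medians of their neighbours. The 90 tested genes within 5 Mb of NTF3 had a median of 0.20 in KD1 against CON, with 26.7% below 0, and the 103 in KD1 against WT had one of -0.08, beside -4.55 and -3.25 for NTF3. In WT against CON the 110 genes within 5 Mb had a median of 0.32, whereas the 10 nearest had one of -0.14, with 6 below 0 and a range of -2.36 for ANO2 to 0.74 for NDUFA9, beside -0.85 for NTF3. The 120 genes within 5 Mb of NGFR had a median of 0.08 in KD1 against CON and the 137 in KD1 against WT had one of -0.03, beside 0.71 and 0.89 for NGFR.

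**Figure D5:**
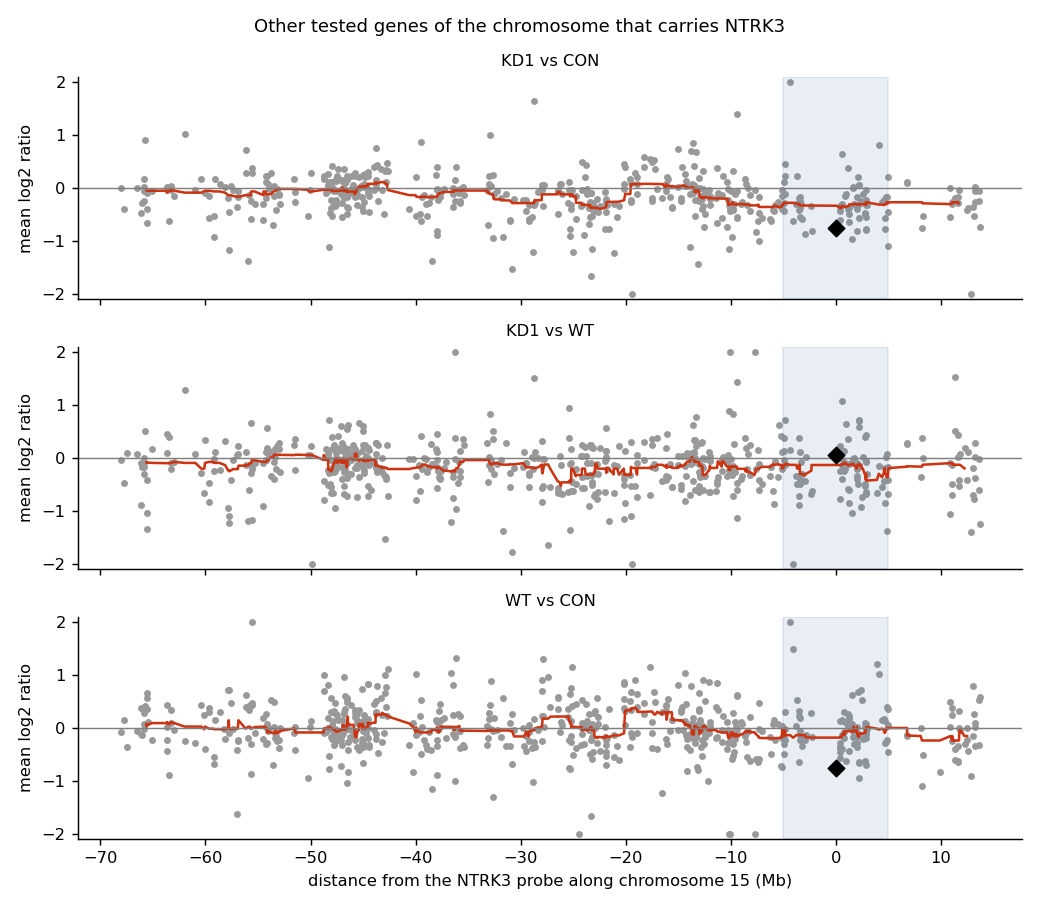
Mean log2 ratio of the other tested genes of chromosome 15 (grey points, values beyond 2 drawn at 2) against their distance in Mb from the NTRK3 probe A_23_P88538 (black diamond), with a running median over 25 genes (red) and the 5 Mb on each side shaded, in the 3 comparisons. In the shaded region the median is -0.31 in KD1 against CON and -0.09 in WT against CON.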

How the data were processed

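Total RNA (500 ng per labelling) of WT, CON and KD1 was hybridized by the authors to 12 two-colour Agilent 4x44K arrays and read with Agilent Feature Extraction 10.5.1.1. Per the file headers, the deposited processed signals are intensities after local background subtraction, spatial detrending and lowess dye normalization, and the deposited LogRatio is the log10 of Cy5 over Cy3. The deposited series table holds log2 ratios of the same arrays, centred at a median of 0, with the sign turned on dye-swapped arrays. Signals were not scaled between arrays, so signals set side by side across arrays are a description, and differences rest on ratios within arrays.

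Probe positions are those of hg18. Log2 ratios of processed signals were turned to KD1 over CON, KD1 over WT or WT over CON, flagged outlier spots were dropped, spots of a probe were averaged, and each dye-swap pair gave 1 replicate value. Probes were kept for a comparison if, on each of its arrays, either channel exceeded the 99th percentile of the negative controls after background subtraction, and were fitted with limma 3.58.1 in R 4.3.3 (1 coefficient per comparison, 2 residual degrees of freedom because the comparisons share extracts, Benjamini-Hochberg over all probes tested, threshold 0.05). The method was checked on simulated data. Genes were counted by their brightest probe. WT, CON and KD1 extracts of the same replicate number were paired on each array by the design. P-values of the main fit rest on the spread between replicates, pooled over the comparisons and moderated across probes, and not on 1 comparison alone. The small number of arrays limits the precision.

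Named were all probes of NTF3, NGFR and NTRK3, BDNF, NTF4 and NTRK2, list genes past the threshold, the genes the study lists, PAX3 and FOXO1, the 5 genes nearest NTF3, and a few others as examples chosen after their values were seen. Members and lists were chosen with earlier results of these data known. The region around each gene and the fit without the second WT extract were added after seeing the data. Some further genes are not reported here. Of 80 genes in the lists and marker sets, the accessions of 77 matched RefSeq under the same symbol.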

Additional observations from a re-analysis of the deposited data

How the results depend on the processing

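The ratios of NTF3, NGFR and NTRK3 kept their values within 1 SD of the replicates under median centring and from separate channels. The series table holds the same ratios of the same arrays, so it gives the same values by construction and is no separate check. Leaving out a replicate gives the value of the other, -4.69 and -4.40 for NTF3, 0.36 and 1.07 for NGFR and -1.04 and -0.47 for NTRK3 in KD1 against CON. Normexp followed by loess, which by construction raises dim signals by its offset of 50, gave -1.37 for NTF3 in KD1 against CON, -0.96 in KD1 against WT, and -0.24 and -0.33 for NTRK3 in KD1 against CON and WT against CON. The mean over all 4 NTRK3 probes in KD1 against WT was -0.19 in place of 0.06. NTF3 and NGFR have 1 probe each, so that alternative was not run for them. Under the 99th percentile rule the detection counts of the brightest probes of NTF3, NGFR and NTRK3 changed by at most 1 channel, from 8 to 7 for NTRK3 in KD1. For NTF3 in KD1 the count was 4 under both rules, but the channels differed, and Cy5 channels were among those passing the 99th percentile. Its background-subtracted signals in KD1 were 0.13 to 2.59 times that percentile. Among dimmer probes, A_24_P810476 went from 4 to 2 channels in WT, A_32_P141969 from 2 to 1 in KD1, and the BDNF probe A_32_P7316 from 4 to 2 in WT and 8 to 5 in KD1.

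The number of probes past the threshold was 390 in KD1 against CON (222 lower), 259 in KD1 against WT (189 lower) and 366 in WT against CON (158 lower). It depended on the processing. Normexp left 26, 1 and 2, and 0 of the 4, 4 and 3 list genes in the 3 comparisons. At an unadjusted p under 0.05 by limma it had 11 of 41, 12 of 47 and 13 of 51 tested list genes. Over all probes these numbers were 3341 of 21949, 4354 of 24893 and 4689 of 26616. Median centring left 251, 139 and 179 (57 lower and 122 higher in WT against CON). Separate channels with no replicate block left 202, 126 and 115 (33 lower in WT against CON), and with the replicate block 171, 110 and 107 (36 lower), where the pairing by replicate left 2 list genes in KD1 against WT, without BDNF and ARC. Without a filter 254 passed in KD1 against CON and 200 in WT against CON (66 lower). Each comparison fitted alone gave 932 in WT against CON. Without the second WT extract, where the lone WT extract is assumed to vary like the others, 387, 36 and 5 probes and 3, 2 and 0 list genes passed. MAGEH1 passed in 7 of 8 alternatives in each KD1 comparison, the exception being normexp, and so did GFRA1 and ARC in KD1 against CON and PTN in KD1 against WT. BDNF passed in 2 of 8 in KD1 against WT and 3 of 8 in WT against CON, and MDK in 2 of 8. The 8 alternatives are not all distinct, since the series table repeats the ratios of the main fit. In KD1 against CON, the fit without the second WT extract is also the same as the fit of that comparison alone. Leaving out a replicate leaves no residual degrees of freedom for the counts, so they were not refitted. NTF3 in KD1 was near background, which limits its fold changes.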
